A study of Mus musculus with 6 samples.

Results

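Neurotensin, galanin, and their receptors were followed in the hypothalamus of male mice, by the rows of the deposited value table that carry the symbol of 1 of 9 genes. The genes are *Nts*, *Ntsr1*, *Ntsr2*, *Sort1*, *Gal*, *Galp*, *Galr1*, *Galr2*, and *Galr3*. Of these, 8 had a row of their own among the 21507 genes compared, with 1 row each. The 2 rows of *Galr3* also carry the symbol of another gene, so no value is given for it. RNA was measured on 6 Affymetrix whole-transcript arrays, 3 from *Slug fl/fl* mice, which carry floxed *Slug* and no *Cre* (the control arrays), and 3 labeled ΔLepR, from mice with the same floxed *Slug* and homozygous *Cre* at the leptin receptor gene (the ΔLepR-labeled arrays, *Slug ΔLepRb* in the study). The mice were on chow, and the labels give an age of 8 weeks where the study's methods give an older age. In the study's methods *Cre* is a knockin at *LepRb*, meant to delete *Slug* in the cells that express the long leptin receptor, in the brain and outside it, whereas CreERT2 is the *Cre* that the labels name. *Cre* without floxed *Slug* was not measured in the files used here. The labels do not say how many mice an array held, and a p-value here measures only the spread between arrays, which may be technical.

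Neurotensin is a peptide of lateral hypothalamic, preoptic, and other limbic neurons that restrains feeding when given into the brain. Many leptin receptor neurons of the lateral hypothalamus make it, and part of them also make galanin, a peptide that promotes feeding. Ntsr1 and Galr2 signal mainly through Gq and calcium, Galr1 and Galr3 through Gi, and Ntsr2 is a low-affinity receptor found in large part on astrocytes. Sortilin, encoded by *Sort1*, is a sorting receptor of the VPS10 family that also binds neurotensin, and *Galp* encodes a galanin-like peptide of the arcuate nucleus whose expression is known to depend on leptin.

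The values are on a log2 scale, so a difference of 1 is a 2-fold change, and values of different genes come from different probes, so the genes were not ranked by level. The median of all genes is used only to mark dim values, and a value of one gene minus another in the same array only to compare the groups. The array medians lay between 4.04 and 4.07. *Snai2*, the gene of Slug, lay between 3.79 and 4.23 in the control arrays and between 9.68 and 10.49 in the ΔLepR-labeled arrays, a direction that goes against a deletion of the gene in the ΔLepR-labeled mice. Which part of the transcript its row covers was not analysed here, and the groups are named by label throughout. In the study, RNAscope probes for the deleted *Slug* sequence detected neurons with both *Slug* and *LepRb* in control mice, and did not in *Slug ΔLepRb* mice. *Lepr* lay between 3.72 and 4.04 and between 4.16 and 4.55, in the same order. None of the 8 genes lies on the chromosomes of *Snai2* (16) or *Lepr* (4). In whole tissue, fewer cells of a type and less RNA per cell cannot be told apart.

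RefSeq promoter sequences (GRCm38.p6, 250 bases before to 50 after the start of a gene) were matched by symbol for 6 of the 9 genes. They were searched on both strands for the E2 box that Slug binds, CACCTG or CAGGTG, and for TTCNNNGAA, which Stat3, the factor that leptin activates, can bind, and TGANTCA and TGACGTCA, which AP-1 and CREB bind. The matches in the promoters of the neurotensin genes are shown because *Nts* and *Ntsr2* had the largest differences of the 8 genes, and *Ntsr1*, with the same E2 box as *Ntsr2*, had the smallest. Capitals mark the match.
Ntsr1, E2 box, chr2:180499756-180499785, plus strand: ctcatcctagccCAGGTGgtccccgggagc
Ntsr2, E2 box, chr12:16653262-16653291, plus strand: agcaatgccatcCAGGTGaacctcaaagga
Ntsr2, TTCNNNGAA, chr12:16653398-16653426, plus strand: gttttggaggTTCCCAGAAaggaggtggt
Nts, TGANTCA, chr10:102490608-102490636, minus strand: aactctttctgTGAGTCAgaaatcctgag
The E2 box was found in 2 of the 6 promoters, *Ntsr1* and *Ntsr2*, and in 20.2% of all 32851 promoters. TTCNNNGAA was found in *Ntsr2* and *Galr2* (8.3% of all promoters), and TGANTCA in *Nts* (7.81%). TGACGTCA was found in none of the 6 (1.79% of all promoters). The matches do not overlap each other. A match is a run of letters and was not tested as a binding site. Whether a match bears on a difference between the groups was not tested either.

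None of the 8 genes passed the study's threshold, more than 25% higher or lower at an unadjusted p under 0.05, which 2.01% of all 21507 genes passed in limma (1.44% higher and 0.577% lower in the ΔLepR-labeled arrays). None passed an adjusted p of 0.05, against 0.0139% of all genes. At an unadjusted p under 0.05, without the fold limit, 1 of the 8 passed, *Nts*, which was higher, against 5.85% of all genes (2.93% higher and 2.92% lower). With the methods' t-test on the same values 2 passed, *Nts* and *Ntsr2*. The groups did not overlap for 3 of the 8, *Nts* and *Ntsr2* (higher) and *Sort1* (lower), against 11.5% of all genes (5.91% higher and 5.56% lower). The median log2 difference of the 8 genes was 0.05, with a range of -0.11 to 0.26, and the median of all genes was 0.00. The 5 genes whose groups overlapped had unadjusted p-values of 0.40 to 0.86 in limma, and of 0.60 to 1.0 in the two-sided exact permutation test.

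**Figure D1:**
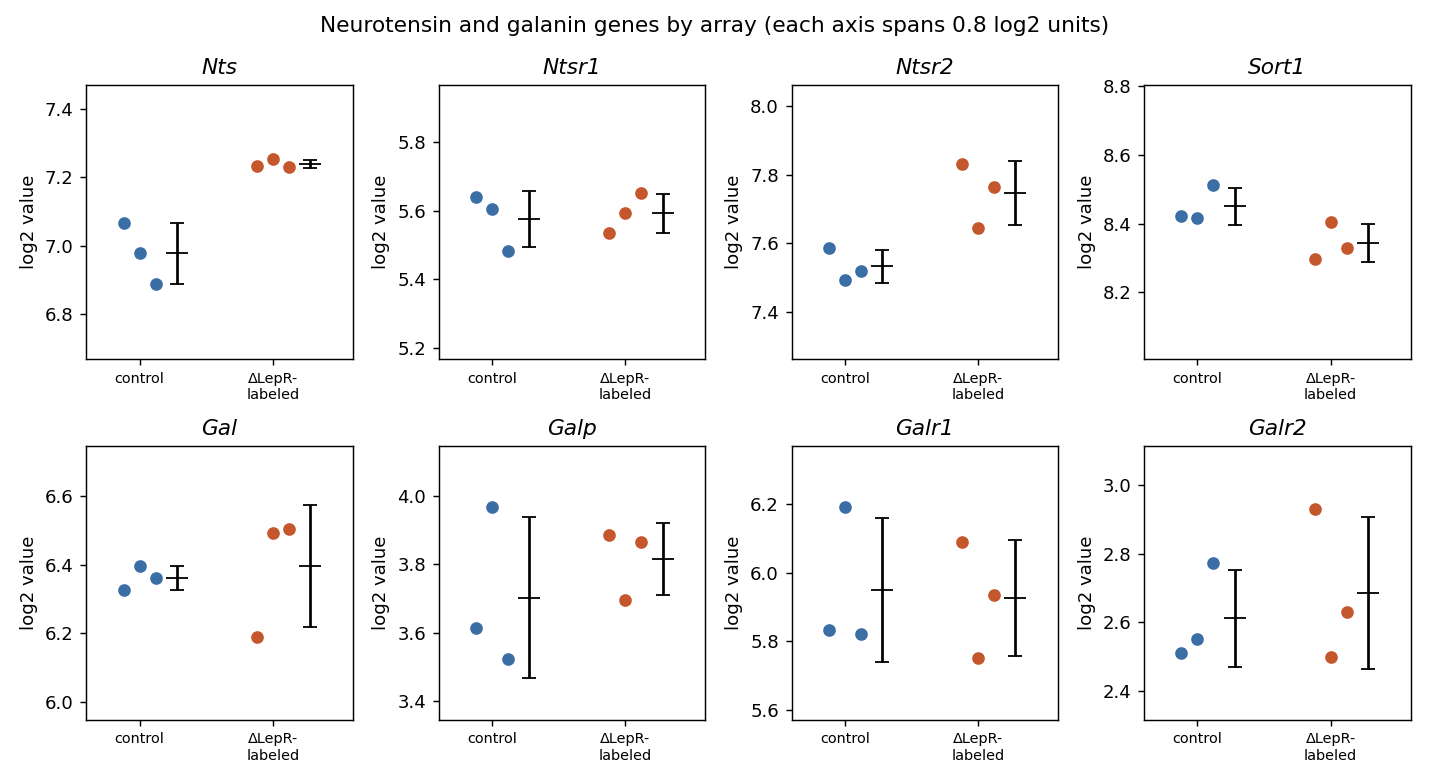
Log2 value of each of the 8 genes in the 3 control arrays (blue) and the 3 ΔLepR-labeled arrays (orange), with the mean and SD of each group in black. Each vertical axis spans the same distance. The groups are apart for Nts, Ntsr2, and Sort1 and overlap for the other 5 genes.

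The peptide gene *Nts* had the largest difference of the 8. Its log2 values were 7.07, 6.98, and 6.89 in the control arrays and 7.23, 7.25, and 7.23 in the ΔLepR-labeled arrays. All 3 arrays of the latter lay above all 3 of the former, with a gap of 0.16, and they spanned 0.02 where the control arrays spanned 0.18. The means were 6.98 ± 0.09 and 7.24 ± 0.01 (SD, n = 3 each), a 1.20-fold difference (log2 difference 0.26, SE 0.09, 95% confidence interval 0.05 to 0.47). The unadjusted limma p was 0.020 and the adjusted p was 0.84. The two-sided exact permutation test gave p = 0.10, which is the lowest value possible with 3 arrays in each group. A log2 difference at least as high as that of *Nts* was found in 3.60% of all genes. As each array was left out it stayed between 0.22 and 0.31, with the lowest value and an unadjusted p of 0.065 without control array 3.

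*Gal* encodes the other peptide of these neurons. Its log2 values were 6.33, 6.40, and 6.36 in the control arrays and 6.19, 6.49, and 6.51 in the ΔLepR-labeled arrays. The groups overlapped, since ΔLepR-labeled arrays 2 and 3 lay above every control array and array 1 below every one. The log2 difference was 0.034 (SE 0.11, adjusted p = 0.99, limma), and its 95% interval in folds, 0.863 to 1.22, lay within the study's limits. The difference was 0.14 without ΔLepR-labeled array 1, and was below 0 without array 2 (-0.014) or array 3 (-0.020). Array 1 also had the highest value of *Prl*, the pituitary hormone gene of prolactin, at 5.16 against 2.60 to 3.01 in the other 5. *Pitx1*, another pituitary gene, was 2.41 in that array, within the 2.32 to 2.67 of the other 5. The 8 measured pituitary genes had log2 differences of -0.40 to 0.81, the highest being that of *Prl*, with a median of 0.03. Whether pituitary tissue bears on *Gal* was not tested. *Galp* was 3.61, 3.97, and 3.52 in the control arrays and 3.88, 3.70, and 3.87 in the others, with overlap (log2 difference 0.11, SE 0.13). It moved to 0.25 (unadjusted p = 0.064, limma) without control array 2, its highest array, and to 0.024 without control array 3.
The difference in the response of *Nts* and *Gal* was itself examined, in a test chosen after their values were seen. The *Nts* value minus the *Gal* value of the same array was 0.74, 0.58, and 0.53 in the control arrays and 1.04, 0.76, and 0.73 in the others, which overlap. The groups differed by 0.23 in this quantity (two-sided exact permutation test, p = 0.20, also 0.20 after adjustment over the 2 pairs tested). The lowest p that this design allows is 0.10, so the test could not have passed, and whether the peptide genes differ in response was not settled.

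**Figure D2:**
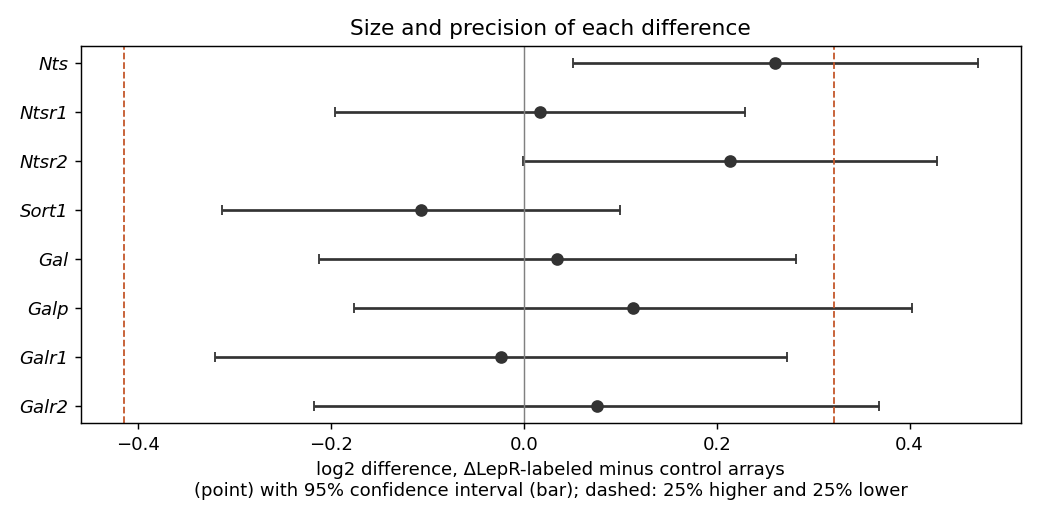
Log2 difference of each gene, ΔLepR-labeled minus control arrays (point), with its 95% confidence interval from limma (bar). The dashed lines are the limits of the study, 25% higher and 25% lower. The intervals of Ntsr1, Sort1, Gal, and Galr1 lie between the dashed lines, and only the interval of Nts leaves out 0.

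Of the neurotensin receptors, *Ntsr2* was higher in every ΔLepR-labeled array. Its log2 values were 7.59, 7.49, and 7.52 in the control arrays and 7.83, 7.65, and 7.76 in the others, a gap of 0.06. The difference was 1.16-fold (log2 difference 0.21, SE 0.10, unadjusted p = 0.051, adjusted p = 0.84, limma; two-sided exact permutation test, p = 0.10). It stayed above 0 as each array was left out, between 0.17 and 0.26. A log2 difference at least as high was found in 6.36% of all genes.
Since *Ntsr2* is known from astrocytes, the astrocyte list is given beside it. Of 9 measured astrocyte genes, 8 had a log2 difference below 0, and 1 of them passed the study's threshold, the potassium channel gene *Kcnj10* (8.99 ± 0.23 and 8.21 ± 0.19, SD, n = 3 each, adjusted p = 0.40, limma). The median log2 difference of the list was -0.12. The unlogged values of the list summed to between 1949 and 2203 in the control arrays and to between 1721 and 1853 in the others. Without *Kcnj10* the sums were 1525 to 1666 and 1446 to 1518. The 1 gene above 0 had a log2 difference of 0.08. The groups did not overlap for 1 of the 9 genes, *Kcnj10*, against 11.5% of all genes. Over all genes 2.01% passed the study's threshold. The median log2 difference of all genes was 0.00. All 9 astrocyte genes had a mean above the median of all genes, 4.18. Whether astrocyte content bears on *Ntsr2* was not tested.

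*Ntsr1*, the high-affinity receptor through which neurotensin acts on midbrain dopamine neurons, was 5.64, 5.60, and 5.48 in the control arrays and 5.54, 5.59, and 5.65 in the others. The groups overlapped, and the log2 difference was 0.017 (SE 0.10), with a 95% interval in folds of 0.873 to 1.17. Its sign turned without control array 3 (-0.029) or ΔLepR-labeled array 3 (-0.012). *Slc6a3*, the dopamine transporter gene of midbrain neurons, ranged from 3.73 to 5.13 among the control arrays and from 3.82 to 4.03 in the others. None of 7 genes of midbrain dopamine neurons passed in the main fit. *Slc6a3* passed without control array 1, and with the replicate number as a block. The *Ntsr2* value minus the *Ntsr1* value of the same array was 1.95, 1.89, and 2.04 in the control arrays and 2.30, 2.05, and 2.11 in the others, which do not overlap (two-sided exact permutation test, p = 0.10, and 0.20 after adjustment over the 2 pairs tested). Here too no p below 0.10 was possible, so whether the receptors differ in response was not settled.

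*Sort1* was lower in every ΔLepR-labeled array. Its log2 values were 8.42, 8.42, and 8.51 in the control arrays and 8.30, 8.40, and 8.33 in the others. The gap between the groups was 0.01, smaller than the SD of either (0.05 and 0.06). The log2 difference was -0.11 (SE 0.09, unadjusted p = 0.27, limma), and its 95% interval in folds was 0.805 to 1.07. The other 4 VPS10 receptor genes, *Sorl1*, *Sorcs1*, *Sorcs2*, and *Sorcs3*, had log2 differences of 0.04 to 0.20, and none passed the study's threshold. The highest was that of *Sorcs2*, a coreceptor of neurotrophin signals, which was 5.87, 5.91, and 5.92 in the control arrays and 6.09, 6.15, and 6.05 in the others (unadjusted p = 0.051, adjusted p = 0.84, limma).

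Neither measured galanin receptor differed by more than its spread. *Galr1* was 5.83, 6.19, and 5.82 in the control arrays and 6.09, 5.75, and 5.94 in the others, a log2 difference of -0.024 (SE 0.13) with a 95% interval in folds of 0.801 to 1.21. Control array 2, the highest of all 6 for *Galr1*, was also the highest for *Galp*. Without this array the difference of *Galr1* was 0.10, and without ΔLepR-labeled array 2, its lowest array, it was 0.06. *Galr2* was 2.51, 2.55, and 2.77 in the control arrays and 2.93, 2.50, and 2.63 in the others (log2 difference 0.075, SE 0.13), and its sign turned without ΔLepR-labeled array 1 (-0.047). In both groups the values of *Galr2* and *Galp* were dimmer than the median gene. Their 95% intervals reached 1.29-fold and 1.32-fold, and so included increases past the study's upper limit.

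**Figure D3:**
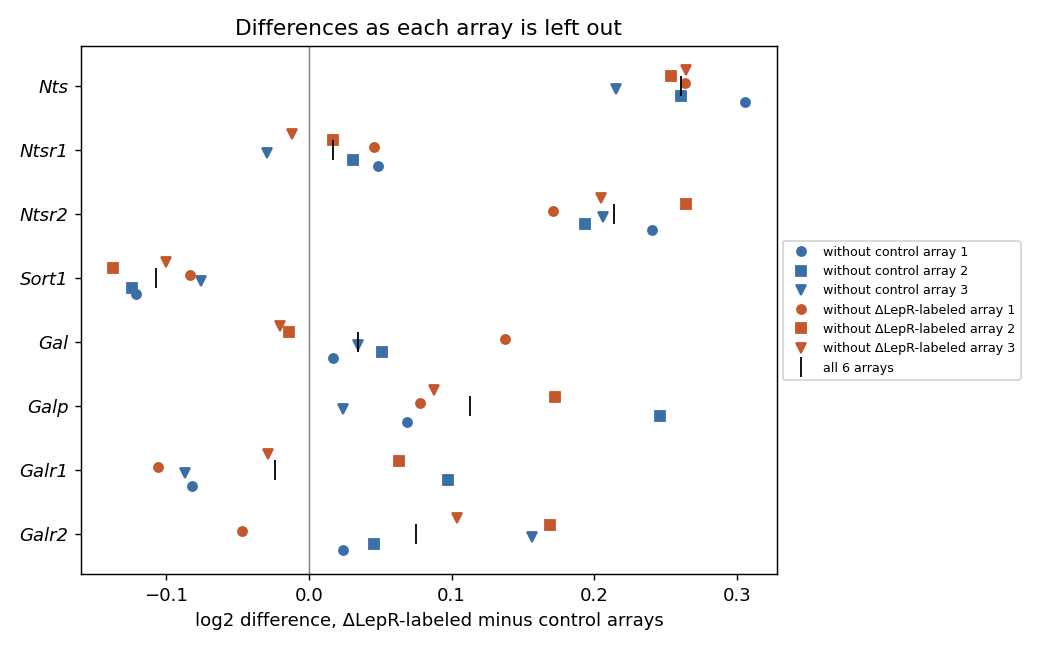
Log2 difference of each gene with all 6 arrays (black line) and as each array is left out (symbols). Nts stays between 0.22 and 0.31 and Ntsr2 between 0.17 and 0.26, whereas Ntsr1, Gal, Galr1, and Galr2 have values on both sides of 0.

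Peptides and receptors close to these in sequence or binding were described next. Of 10 measured genes, among them *Spx* (spexin, a ligand of galanin receptors), *Kiss1* and *Kiss1r*, and the neuromedin U and S system, none passed the study's threshold, and their median log2 difference was -0.09. Those with the smallest p were *Trhr*, the receptor of thyrotropin-releasing hormone (0.28, SE 0.16), and *Ghsr*, the ghrelin receptor (0.18, SE 0.10). *Trhr* passed without control array 1 or ΔLepR-labeled array 2. Of 13 genes of peptide processing and dense-core granules none passed, with a median of 0.03. *Pcsk1n*, which encodes proSAAS, an inhibitor of prohormone convertase 1, was 7.26, 7.17, and 7.41 in the control arrays and 7.50, 7.71, and 7.57 in the others. At 1.24-fold (unadjusted p = 0.015, adjusted p = 0.84, limma) it fell just short of the fold limit, and it passed without control array 3 or ΔLepR-labeled array 1 or 3. *Scg3*, a granule protein gene, had a log2 difference of -0.14 (SE 0.09). Of 9 peptidase genes none passed (median 0.09), the smallest p being those of *Ece2* (0.19, SE 0.11) and *Prep* (0.13, SE 0.11).

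In the signal paths of the receptors, none of 13 genes of Gq coupling passed, and all lay between -0.11 and 0.12, with *Rgs2* (0.12) and *Prkca* (-0.11) having the smallest p. Of 15 genes of Gi coupling, 1 was lower and none was higher, against 0.577% and 1.44% of all genes. It was *Kcnj9*, a subunit of the potassium channels that Gi-coupled receptors open, with log2 values of 5.71, 5.85, and 6.17 in the control arrays and 5.64, 5.32, and 5.37 in the others. The groups did not overlap, and *Kcnj9* was 27.6% lower (log2 difference -0.47, SE 0.14, unadjusted p = 0.0079, adjusted p = 0.78, limma). It missed the 25% limit without control array 3 (-0.33) or ΔLepR-labeled array 2 (-0.41), and the methods' t-test gave an unadjusted p of 0.052. The other measured subunit genes of these channels, *Kcnj3* (0.02), *Kcnj5* (0.20), and *Kcnj6* (-0.07), did not pass. The median of the Gi list was 0.02.

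The lateral and dorsomedial hypothalamus, where leptin receptor neurons with neurotensin and galanin lie, was described by 20 genes, of which 3 were higher (*Mc4r*, *Lepr*, and *Tac1*), 2 were lower (*Gad1* and *Lhx9*), and 15 did not pass, against 2.01% of all genes that passed in either direction. The list was chosen with earlier results of these data known, and it holds *Lepr*, which the study reported as higher. The share that passed is therefore not a test of these neurons. The median of the list was -0.05. *Mc4r*, the melanocortin receptor gene through which α-MSH restrains feeding, had the largest difference of the list, with log2 values of 3.29, 3.05, and 3.39 in the control arrays and 3.65, 4.08, and 3.82 in the others. *Mc4r*, *Lepr*, and *Lhx9* had means over all arrays dimmer than the median gene, and were therefore not tested in the setting without dim genes. *Tac1*, a peptide gene of these regions, was 6.16, 6.39, and 6.14 in the control arrays and 6.57, 6.65, and 6.61 in the others, 1.30-fold higher. The other peptide genes of the list went in both directions, with log2 differences from -0.37 to 0.13, and none of them passed. *Lhx9*, a homeobox gene of hypocretin neurons, was 3.78, 3.76, and 4.25 in the control arrays and 3.67, 3.39, and 3.29 in the others. Its log2 difference of -0.48 no longer passed without control array 3 (-0.32) or ΔLepR-labeled array 3 (-0.40), nor with the methods' t-test (unadjusted p = 0.071). *Gad1* missed the 25% limit without control array 3 (-0.36) or ΔLepR-labeled array 1 (-0.32). The other GABA neuron genes of the list, *Gad2* (-0.04) and *Slc32a1* (-0.07), did not pass, nor did *Hcrt*, the gene of hypocretin (-0.02). None of the 5 genes past the study's threshold passed an adjusted p of 0.05 over all genes (0.55 to 0.81, limma).

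**Figure D4:**
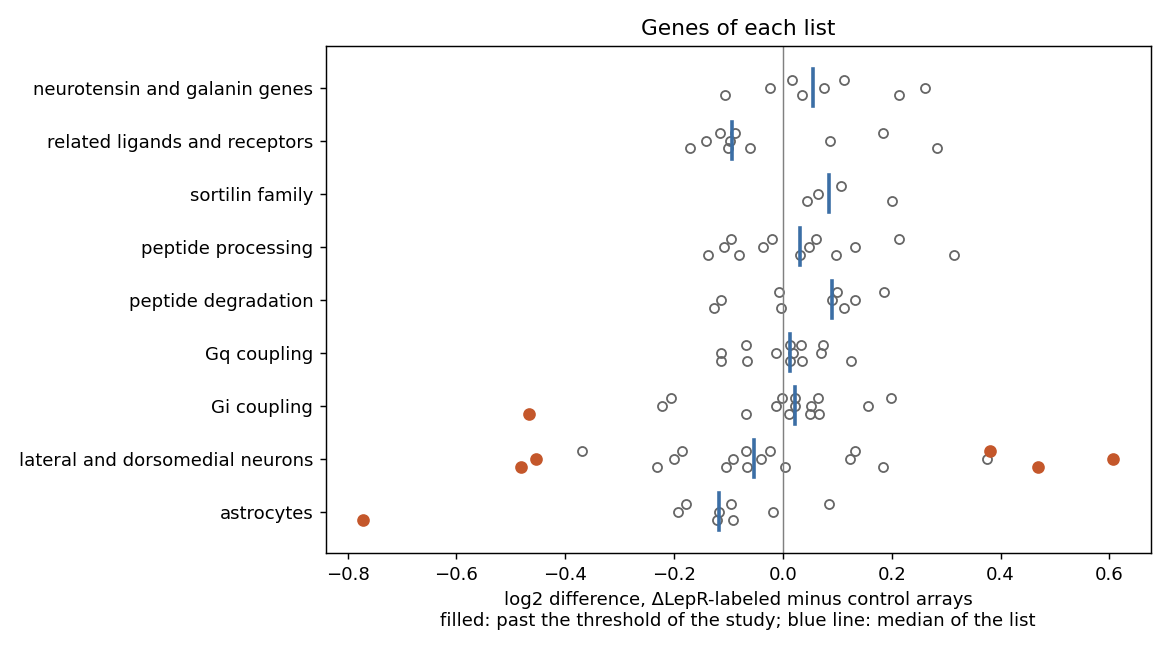
Log2 difference of each measured gene of 9 lists, ΔLepR-labeled minus control arrays. Filled points passed the study's threshold and the blue line is the median of a list. No neurotensin or galanin gene is filled, whereas 5 genes of the lateral and dorsomedial list, Kcnj9 of the Gi list, and Kcnj10 of the astrocyte list are.

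Likeness to *Nts* and *Gal* was measured as the root mean square difference between centred log2 values over the 6 arrays, among 10160 other genes brighter than the median, without predicted genes and small RNAs. The genes nearest to *Nts* were *Cetn3* (0.03), *Ankfn1* (0.04), and *Apeh* (0.04), and 508 genes lay within 0.1. The genes nearest to *Gal* were *Acad11* (0.01), *Pip5k1b* (0.03), and *Ufsp2* (0.03), and 1059 genes lay within 0.1. Close patterns over 6 arrays were thus common.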

How the data were processed

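The authors deposited 1 table of probe set values already on a log2 scale, with 1 column for each array. The base is inferred from their range, 0.90 to 12.43. MAS5 is named, with no role or version, in the submitters' processing notes, and how background, summarisation, normalization, and filtering were handled is not given in the sources used here, so the values were used as deposited. Precision is limited by the number of arrays. Correlations between arrays were 0.991 to 0.993, and no 2 arrays were identical.

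By the platform annotation, 21925 of the 24663 rows carry 1 gene symbol, 818 several, and 1920 none. Symbols were updated through Entrez identifiers in RefSeq (GRCm38.p6; 21832 rows matched). The brightest row per gene by the mean over all 6 arrays was kept (21507 genes). The comparison used limma 3.58.1 in R 4.3.3 (lmFit, eBayes, no covariate), with p-values adjusted by Benjamini-Hochberg over all genes, and with an exact permutation test for the neurotensin and galanin genes. The fit was checked on simulated arrays. The members and lists were chosen with earlier results of these data known. The pair tests and motifs were chosen after values and sequences had been seen.

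Named are all members, *Snai2* and *Lepr*, the genes of each list past the study's threshold or else at most the 2 with the smallest p (none for some lists of other cell types), and the 3 genes nearest in pattern to *Nts* and *Gal*. *Prl* and *Slc6a3* are among these for the pituitary and midbrain lists. *Sorl1*, *Sorcs1*, *Spx*, *Kiss1*, *Kiss1r*, *Kcnj3*, *Kcnj5*, *Kcnj6*, *Gad2*, *Slc32a1*, and *Hcrt* fall outside this rule and are named to show what their lists hold. The fit was repeated with each array left out in turn, with array weights, with the replicate number as a block, with an intensity trend and robust prior, after median centring or quantile normalization, without genes dimmer than the median, with rows of a gene averaged, and as the 2-tailed Student's t-test of the methods.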

Additional observations from a re-analysis of the deposited data

How the results depend on the processing

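No alternative put any of the 8 genes past the study's threshold. *Nts*, *Ntsr2*, *Galp* (above 0), and *Sort1* (below 0) kept their direction under every alternative in which they were tested. As each array was left out, *Gal* ranged from -0.020 to 0.14, *Galr1* from -0.11 to 0.10, *Galr2* from -0.047 to 0.17, and *Ntsr1* from -0.029 to 0.049, each crossing 0. The number of these genes at an unadjusted p under 0.05 was 1, and 2 with the methods' t-test, the intensity trend, array weights, or without dim genes, the second being *Ntsr2*, and ranged from 0 to 2 as each array was left out. Over all genes, 309 were higher and 124 lower past the threshold, against 156 and 62 with the methods' t-test and 135 and 56 without dim genes, where fewer genes were tested. As each array was left out the counts ranged from 368 to 463 and from 153 to 189. *Galp* and *Galr2* were not tested without dim genes.

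The shared replicate numbers do not pair the arrays by the correlation of their deviations from the group means (-0.003, -0.01, and -0.058 for the 3 same-numbered pairs). With the number as a replicate block the counts were 348 and 138, the unadjusted p of *Nts* was 0.040, and no gene of the 8 passed. The log base, the probe background, and the part of each transcript that a row covers limit every value.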

Other observations

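The tissue label and its neighbors were described by the lists not used above. Of 14 measured genes that define hypothalamic cells, 11 had a mean at or above the median of all genes, and 1 passed the study's threshold, *Avp*, the gene of vasopressin (27.4% lower, but by less than 25% once control array 2, at -0.34, or ΔLepR-labeled array 1, at -0.38, was left out). All 8 measured pituitary genes had a mean over the 6 arrays under the median of all genes, although *Prl* lay above it in ΔLepR-labeled array 1, at 5.16. None of 10 preoptic, 8 pituitary, 7 thalamic, 8 oligodendrocyte, 6 microglial, 6 endothelial, and 6 choroid plexus genes passed in the main fit. Over all genes 2.01% passed. *Moxd1* and *Lhx8* (preoptic), *Prl*, *Ptpn3* (thalamic), *Ly6c1* (endothelial), and *Kl* (choroid plexus) each passed once a certain array was left out. *Prl* and *Ly6c1* also passed with the replicate block. The unlogged values of the thalamic list summed to between 236 and 397 in the control arrays and to between 257 and 319 in the others.

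Of 6 genes of cortex and striatum, *Neurod6* was higher (0.34, SE 0.14) and *Emx1*, a homeobox gene of the dorsal forebrain, was lower (2.88 ± 0.17 and 2.36 ± 0.09, SD, n = 3 each, adjusted p = 0.55, limma). Both were dimmer than the median gene throughout. *Emx1* stayed past the threshold as each array was left out, between -0.61 and -0.45, whereas *Neurod6* did not pass without control array 2 (0.30) or 3 (0.27) or ΔLepR-labeled array 1 (0.36) or 3 (0.22), nor with the methods' t-test (unadjusted p = 0.11), and its groups overlapped.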
